A study of Rattus norvegicus with 11 samples.

Results

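The levels of rno-miR-21, rno-miR-34a, rno-miR-146a and rno-miR-146b, written below without the prefix for rat, were measured in pancreatic islets of female rats whose fathers had eaten a high-fat diet or standard chow before mating. These 4 miRNAs were chosen by name, as miRNAs known to rise in beta cells under inflammatory cytokines. The choice did not use their values here, but earlier results of these data were known when it was made. They are 4 of the 340 miRNA names shared by both array designs of the series. Islets are the hormone-secreting clusters of the pancreas, in which insulin-producing beta cells predominate.

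The daughters were Sprague Dawley rats. The fathers of the HFD group ate pellets with 43% fat, the fathers of the Control group ate chow with 9% fat, and all were mated at 15 weeks of age with females kept on chow. The daughters of both groups ate chow from weaning at 3 weeks. Glucose tolerance was tested when they were 6 and 12 weeks old and insulin tolerance at 11, and islets were isolated at 13 weeks. The daughters themselves were thus never given the high-fat diet, and no cytokine was applied. Per the series' design text, the HFD daughters were glucose intolerant with a blunted insulin response, while their body weight did not differ. Of 11 arrays, 6 were Control and 5 HFD, and each carried a sample with a number of its own. On a first array design, with 350 miRNAs, were 4 Control and 4 HFD samples, and on a second, with 677, were 2 Control and 1 HFD. Shared fathers or litters are not recorded in the labels, so p-values treat the samples as independent.

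A miRNA is a short RNA that guides a silencing complex to target mRNAs, mainly through its seed, bases 2 to 8 counted from the 5′ end. Interleukin-1β and related cytokines activate NF-κB in beta cells, and miR-146a and miR-146b are known NF-κB targets that restrain Toll-like and interleukin-1 receptor signalling through the adaptors Irak1 and Traf6. miR-21 is induced by NF-κB and STAT3 in many tissues and is abundant in dividing and inflamed ones. miR-34a is a direct target of p53 and in beta cells has been linked to fatty acid exposure and apoptosis.

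The mature sequences, from RefSeq, are shown because the seeds tell which of the 4 can address the same mRNAs. Capitals mark the seed.

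miR-21: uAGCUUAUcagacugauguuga
miR-34a: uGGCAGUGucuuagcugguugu
miR-146a: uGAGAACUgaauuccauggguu
miR-146b: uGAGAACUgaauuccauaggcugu

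miR-146a and miR-146b carry 1 seed, and miR-21 and miR-34a each have another. Over the first 22 bases miR-146a and miR-146b share 20. Counted from the 5′ end, with the base of miR-146a first, they differ by G18A and U21C, and miR-146b has 2 further bases at its 3′ end. The array files give no probe sequences, so cross-hybridisation between these near-identical miRNAs was not tested, and the signals of both are uncertain to that extent. In the GRCr8 build, the Mir21 hairpin lies on the minus strand at chr10:71902600-71902691 and overlaps no other gene of the RefSeq table. The Mir34a hairpin lies on the plus strand at chr5:165815952-165816053 and the Mir146a hairpin on the minus strand at chr10:28349996-28350090, each within the span of an annotated long non-coding RNA gene. The Mir146b hairpin lies on the plus strand at chr1:255144860-255144947, within the span of the protein-coding gene C1h10orf95. Whether these positions are exonic or intronic was not analysed here.

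The seed of miR-34a is shared by miR-34b, miR-34c and miR-449a, whose sequences are shown because a change in any of them would bear on the same seed.

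miR-34b: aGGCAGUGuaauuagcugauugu
miR-34c: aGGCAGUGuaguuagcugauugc
miR-449a: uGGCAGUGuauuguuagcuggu

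miR-34b, miR-34c and miR-449a were detected on 0 of 11 arrays, and miR-449c-5p, which has the same seed and is on the second design alone, on 0 of 3. Among the names measured, miR-34a was therefore the one detected miRNA with that seed. The opposite strand miR-21* was detected on 0 of 11 arrays, and miR-34a*, miR-146a* and miR-146b*, present on the second design alone, each on 0 of 3. Detection is the scanner software's own call for a miRNA on an array. miR-21 and miR-34a were detected on all 11 arrays, miR-146a on 10 and miR-146b on 9.

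Each array gave the fluorescence of Cy3-labelled RNA. The scaled signal used below is the background-subtracted intensity of a miRNA, summed over its 2 probes, after each array was brought to the same 75th percentile over 85 miRNAs detected everywhere. Signals of different miRNAs cannot be set against each other, because probes differ in brightness. The beta-cell miRNA miR-375 was detected on all 11 arrays, with log2 scaled signals of 12.09 ± 0.24 (SD, n = 4) in Control and 12.05 ± 0.16 (SD, n = 4) in HFD on the first design. Of the shared names, Control arrays of the first design detected 138 to 153 and HFD arrays 105 to 157. HFD 653 had the lowest count and stood apart in background, since its negative control spots had an SD of 11.6 intensity units against 2.03 to 2.41 on the other 7 arrays. HFD 603 stood apart in leukocyte miRNAs, described beside miR-146a. The fitted difference of each of the 4 is also given without HFD 603, without HFD 653 and without both.

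No difference in level between HFD and Control daughters was detected for any of the 4 miRNAs. In a limma fit with array design as a block, 0 of 4 passed an adjusted p of 0.05, where the background was 0% of 152 miRNAs tested. Adjusted values are Benjamini-Hochberg over those 152. At an unadjusted p of 0.05, limma called 3 of 152 (1.97%) and exact permutation within array design also 3, and none of these was among the 4. The smallest limma adjusted p over the 152 was 0.987, and 0 passed after adjustment in the permutation test. The 4 HFD arrays of the first design lay wholly above or wholly below the 4 Control arrays for 2 of the 152 miRNAs (1.32%), 1 above (0.658%) and 1 below (0.658%), and for 0 of the 4. The interaction of diet with array design was called by limma for 0 of the 152 (0%) after adjustment and for 1 (0.658%) before it, and for 0 of the 4 either way. The intervals below state how large a difference the arrays leave possible for each.

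miR-21, associated with growth and inflammation, had the smallest SD between arrays of the 4, and its group means on the first design nearly coincided. Its scaled signals were 803, 623, 742 and 511 on Control 602, 613, 615 and 639. They were 738, 641, 549 and 711 on HFD 603, 607, 644 and 653. All 4 HFD arrays lay inside the Control range. On the second design, Control 635 and 652 read 699 and 694, and HFD 640 read 731. The log2 level was 9.37 ± 0.29 (SD, n = 4) in Control and 9.36 ± 0.19 (SD, n = 4) in HFD on the first design.

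The fitted HFD minus Control difference of miR-21 over all 11 arrays was 0.010 ± 0.13 on the log2 scale (SE), with a limma adjusted p of 0.987. Its 95% interval ran from -0.29 to 0.31, a ratio between 0.818 and 1.24. An exact permutation of the group labels within array design, over 210 splits, gave a 2-sided p of 0.933. The differences within the designs were -0.0099 on the first and 0.070 on the second, and the interaction of diet with design was 0.080 ± 0.33 (SE, limma adjusted p = 0.996). The difference was a small fraction of its SE, and its sign turned under several settings given in the closing section. It was -0.028 without HFD 603, -0.016 without HFD 653 and -0.079 without both. On the first design its signal was 9.72 to 11.1 times its software error on every array.

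**Figure D1:**
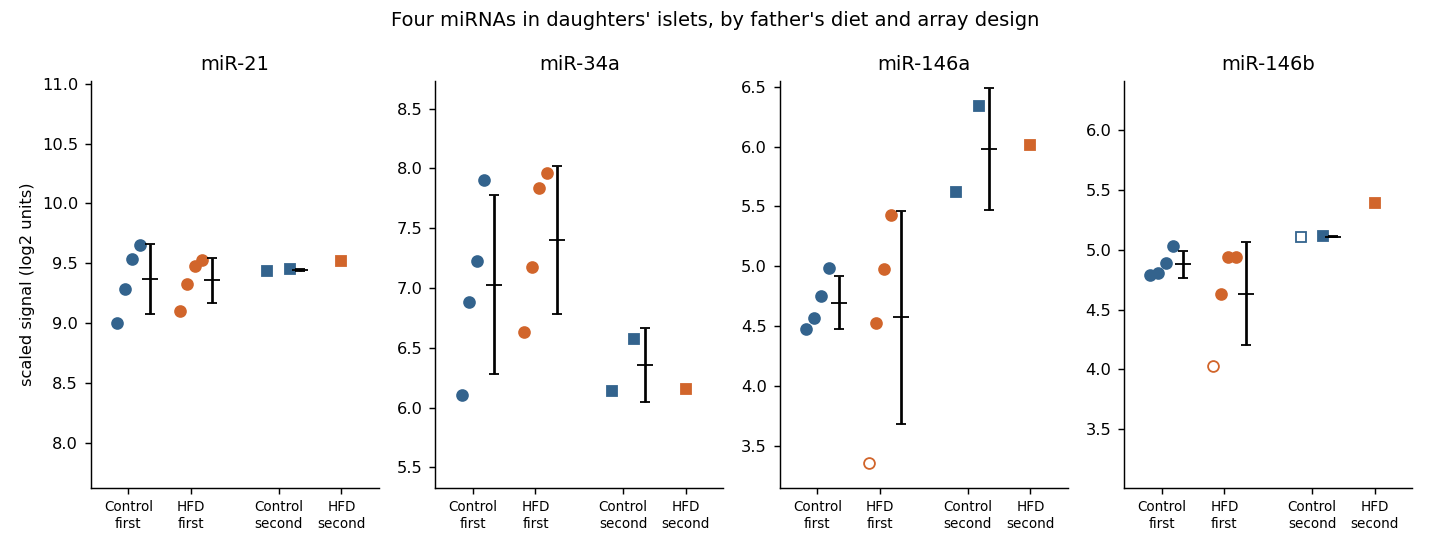
Log2 scaled signal of miR-21, miR-34a, miR-146a and miR-146b by father's diet and array design. Blue is Control, orange HFD, circles the first design and squares the second; open symbols were not detected, and bars give the mean ± SD. The groups overlapped on the first design for each miRNA, and the lowest HFD points of miR-146a and miR-146b are the undetected array HFD 653.

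miR-34a, the p53 target, varied several-fold between daughters of the same group, and this spread exceeded any difference between the groups. Control 602, 613, 615 and 639 had scaled signals of 239, 149, 118 and 68.7, a 3.48-fold range. HFD 603, 607, 644 and 653 had 249, 145, 99.4 and 228, a 2.50-fold range. Of the HFD arrays, 1 lay above the Control range, by little, and 3 lay inside it. The second design read 70.4 and 95.4 on Control 635 and 652 and 71.3 on HFD 640, so its HFD array lay between its Control arrays. On the first design the log2 level was 7.03 ± 0.75 (SD, n = 4) in Control and 7.40 ± 0.62 (SD, n = 4) in HFD.

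The fitted difference of miR-34a was 0.23 ± 0.34 (SE) on the log2 scale, with a limma adjusted p of 0.987 and an exact permutation p of 0.552. The 95% interval, -0.54 to 0.997, spans ratios from 0.690 to 1.996, so a change of up to those sizes in either direction could not be told from none. The differences were 0.37 on the first design and -0.20 on the second, and the interaction was -0.57 ± 0.82 (SE, limma adjusted p = 0.996). Without Control 639, the lowest array, the difference was -0.0088, and without Control 602 it was 0.42. It was 0.079 without HFD 603, 0.11 without HFD 653 and -0.15 without both, so its size and direction rested on single arrays. The SD between arrays of 1 group and design was 0.65, against a median of 0.31 over the 152 miRNAs, which placed miR-34a 23rd in descending order. The spread between spots of the same probe gave a standard error of 2.04 to 3.62% of the signal on 7 first-design arrays and 5.62% on HFD 653. That error covers the spots alone and leaves out labelling, hybridisation and slide position.

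The bulk islet RNA does not tell fewer cells of a type from less RNA per cell, and on the first design the levels of miR-34a moved with a marker of exocrine tissue. miR-216a, a miRNA of the enzyme-secreting acinar cells that surround islets, had scaled signals of 618, 427, 88.7 and 21.0 on Control 602, 613, 615 and 639. It had 666, 302, 106 and 256 on HFD 603, 607, 644 and 653. Over these 8 arrays the log2 signals of miR-34a and miR-216a had r = 0.906 and rho = 0.905, with exact permutation p of 0.00176 and 0.00456, or 0.176 and 0.246 adjusted over the 594 pairs described further on. Without Control 639 and HFD 603, the arrays farthest from the median of miR-34a, r was 0.767. Of the acinar list of 3, 2 were on both designs, and their summed signal ran from 21.0 to 623 in Control and from 106 to 666 in HFD on the first design. The other, miR-217, was detected on 1 of the 8 first-design arrays, Control 602, where it read 4.91, below the floor. On the first design that sum therefore adds nearly nothing to miR-216a. On the second design the order ran the other way: miR-216a read 341, 282 and 334 on Control 635, Control 652 and HFD 640 and miR-217 118, 86.4 and 104, while miR-34a was highest on Control 652. These 3 arrays are too few for a correlation. Of the leukocyte markers over the 8 first-design arrays, miR-223 had r = 0.630 and rho = 0.762 with miR-34a (exact permutation p = 0.0828 and 0.0368). For miR-150, r was 0.653 and rho 0.619 (exact permutation p = 0.0807 and 0.115). Neither had an adjusted p under 0.05. Both relations use undetected readings: miR-223 on Control 615, HFD 644 and HFD 653, and miR-150 on Control 615, Control 639 and HFD 653. The highest first-design miR-223 signal, 45.2, was the undetected one on HFD 653.

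The position on the slide parted the arrays fully by miR-216a, while the miR-34a levels of its rows overlapped. Control 602 and 613 and HFD 603 and 607 were in row 1 of the first slide, and the other 4 arrays in row 2. miR-34a ranged from 145 to 249 in row 1 and from 68.7 to 228 in row 2, a difference of 0.70 on the log2 scale (exact permutation p = 0.143, 70 splits). miR-216a differed by 2.51 (p = 0.0286, exact permutation), and after centring by row its r with miR-34a was 0.911. The HFD minus Control difference of miR-34a was 0.0056 in row 1 and 0.74 in row 2, each from 2 arrays against 2. The part of acinar RNA and of slide row in the miR-34a levels was not tested.

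**Figure D2:**
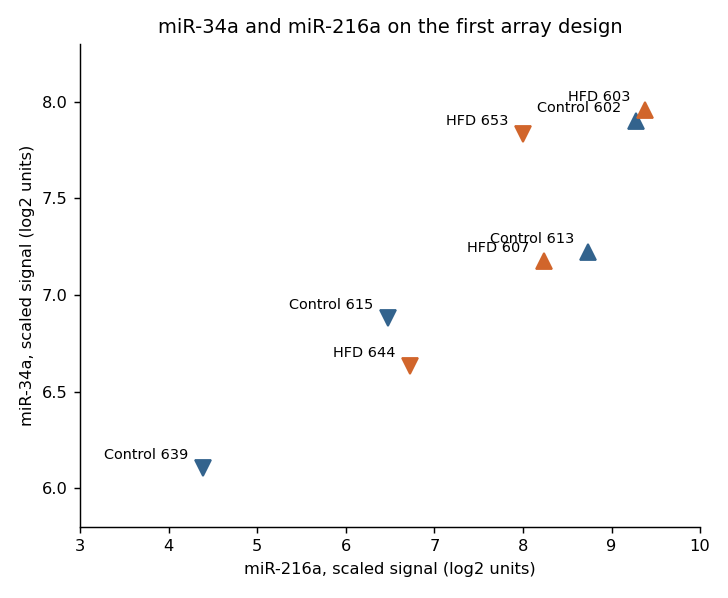
Log2 scaled signal of miR-34a (vertical) against the acinar miR-216a (horizontal) on the 8 arrays of the first design, blue for Control and orange for HFD. Triangles pointing up are row 1 of the slide and pointing down row 2; the points rise together from Control 639 at the lower left to HFD 603 at the upper right, with Control and HFD interspersed.

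miR-146a, the feedback inhibitor of interleukin-1 receptor signalling, was dim on the first design, and its group difference turned on the array HFD 653. Its scaled signals were 22.2, 31.6, 26.9 and 23.7 on Control 602, 613, 615 and 639, and 43.1, 31.5 and 23.0 on HFD 603, 607 and 644. HFD 653 read -5.52, below background, was not detected and was set to the floor of 10.3 scaled units. Of the HFD arrays, 1 lay above the Control range, 1 below it and 2 inside. On the second design the order was Control 635 at 80.8, HFD 640 at 64.6 and Control 652 at 49.0.

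The fitted difference of miR-146a was -0.082 ± 0.33 (SE) on the log2 scale, with a 95% interval from -0.81 to 0.65, a ratio between 0.569 and 1.57. Its limma adjusted p was 0.987 and its exact permutation p 0.857. First-design levels were 4.69 ± 0.22 (SD, n = 4) in Control and 4.57 ± 0.89 (SD, n = 4) in HFD. The difference was -0.12 on the first design and 0.038 on the second, with an interaction of 0.16 ± 0.80 (SE, limma adjusted p = 0.996). Without HFD 653 the difference was 0.21, without HFD 603 it was -0.28, and without both it was 0.051. The direction of miR-146a thus depended on single arrays, and no setting brought it past the threshold.

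The highest first-design signal of miR-146a was on HFD 603, the first-design array highest in the summed markers of leukocytes, acinar, endothelial and fibroblast cells. The acinar sum on that array was miR-216a alone. miR-142-3p, found in blood-derived cells, read 102 there against 3.09 to 8.54 on the other 7 first-design arrays. On the second design it was detected on every array, at 65.4 on Control 635, 40.2 on Control 652 and 78.2 on HFD 640. miR-150, a lymphocyte miRNA, read 209 on HFD 603, 25.1 on HFD 607 and 13.4 on HFD 644, against 9.48 to 12.6 in first-design Control. On HFD 653 it read 71.2 but was not detected, at 2.33 times its software error. Control 615 and Control 639 were not detected for miR-150 either. Over the first design the summed signal of the 5 listed leukocyte miRNAs ran from 194 to 277 in Control and from 256 to 620 in HFD. On the first-design Control arrays the brightest detected miRNA of that list was miR-342-3p, with a mean log2 signal of 7.659 against 4.404 for miR-223. Within that list miR-142-5p was detected on 0 arrays, while miR-223 was detected on 7 of 11, with a fitted difference of 0.14 ± 0.31 (SE). The fitted differences were 0.22 ± 0.14 for miR-342-3p and 1.73 ± 0.61 for miR-150 (SE). Each HFD array read higher for miR-150 than each Control array of its design, with the undetected HFD 653 included. The limma p of miR-150 was 0.018, or 0.987 adjusted. On the first design HFD 603 was also highest in the endothelial sum, at 794 against at most 617 in Control, and in the fibroblast and smooth muscle sum, at 595 against at most 460. The second design reached 890 in Control and 895 in HFD for the endothelial sum and 627 in Control for the fibroblast sum. Of the tested endothelial markers, miR-126 differed by 0.10 ± 0.15 and miR-10a-5p by 0.26 ± 0.21 (SE). Of the fibroblast and smooth muscle markers, miR-143 differed by 0.13 ± 0.25, miR-199a-3p by 0.17 ± 0.30 and miR-214 by -0.13 ± 0.28 (SE), and miR-145 was detected on 1 array of 11. None of these differences passed the threshold in limma. miR-146a is also made by leukocytes. Over the 8 first-design arrays its r was 0.045 with miR-150 and -0.62 with miR-223 (rho 0.024 and -0.14). Without HFD 603 and HFD 653 these r were 0.41 and 0.033. The part of leukocyte RNA in the miR-146a level on HFD 603 was not tested.

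miR-146b, which shares the seed of miR-146a, had the smallest SD of the 4 on the first-design Control arrays. They read 27.6, 29.7, 32.7 and 28.0. HFD 603, 607 and 644 read 24.8, 30.7 and 30.7, and HFD 653 read 16.3 and was not detected. Of the HFD arrays, 2 lay below the Control range and 2 inside. On the second design, Control 635 and 652 read 34.5 and 34.6 and HFD 640 read 42.1, the highest of the 11. The software did not detect miR-146b on Control 635, although its spots gave the scaled signal above. The total recorded there was 0.1, the same figure as for undetected miR-150 on Control 635 and undetected miR-223 on Control 652. It is therefore not read as a measured intensity.

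The fitted difference of miR-146b was -0.11 ± 0.18 (SE), with a 95% interval from -0.51 to 0.28, a ratio between 0.703 and 1.22. The limma adjusted p was 0.987 and the exact permutation p 0.690. Levels on the first design were 4.88 ± 0.11 (SD, n = 4) in Control and 4.63 ± 0.43 (SD, n = 4) in HFD. The difference was -0.25 on the first design and 0.29 on the second, and the interaction was 0.53 ± 0.40 (SE, limma adjusted p = 0.996). It was 0.049 without HFD 653, -0.097 without HFD 603 and 0.13 without both, so the direction below 0 rested on HFD 653.

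Signal relative to the software's error separates the 4 miRNAs by how much weight their values bear. On the 7 first-design arrays other than HFD 653 it was 8.52 to 11.1 for miR-34a, 3.97 to 6.76 for miR-146a and 3.82 to 6.79 for miR-146b. On HFD 653 it was 6.47 for miR-34a, -0.18 for miR-146a and 0.54 for miR-146b. Differences in miR-146a and miR-146b on that array are therefore not detectable at its background. No spot on any array was saturated.

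Each miRNA was read by the same 2 probes on both designs, and on the first design most of the summed signal came from 1 of them. For miR-21 that probe gave 89.5% of the sum, and the HFD over Control ratio of mean signals was 0.989 for it and 0.951 for the other. For miR-34a it gave 85.5%, with ratios of 1.18 and 1.81. On the first design both probes of miR-34a read higher in HFD on average, and the dimmer reached its highest value there, 52.5, on HFD 653. Without HFD 653 these ratios were 1.11 and 1.36, without HFD 603 1.02 and 1.68, and without both 0.835 and 0.952. For miR-146a the brighter probe had a ratio of 0.967 and the dimmer 0.319, and for miR-146b 0.952 and 0.525. Without HFD 653 they were 1.24 and 1.30 for miR-146a and 0.985 and 0.926 for miR-146b, so both miR-146a probes turned direction with that array. Without HFD 603 they were 0.714 and 0.044 for miR-146a and 0.953 and 0.567 for miR-146b. The dimmer probes of miR-146a and miR-146b had 0 of 80 first-design spots well above background, so their ratios rest on values near 0. The brighter probe of miR-146b read 23.7 ± 1.77 in Control and 22.6 ± 1.69 in HFD (SD, n = 4 each). For that probe the group means thus differed by less than the spread within either group. On the second design, 1 HFD array was set against 2 Control arrays. There the brighter and dimmer probes had ratios of 1.06 and 1.04 for miR-21 and 0.852 and 0.870 for miR-34a. The ratios were 0.998 and 0.992 for miR-146a and 1.08 and 1.525 for miR-146b. The dimmer probe there had 22 of 30 spots well above background for miR-146a and 5 of 30 for miR-146b.

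**Figure D3:**
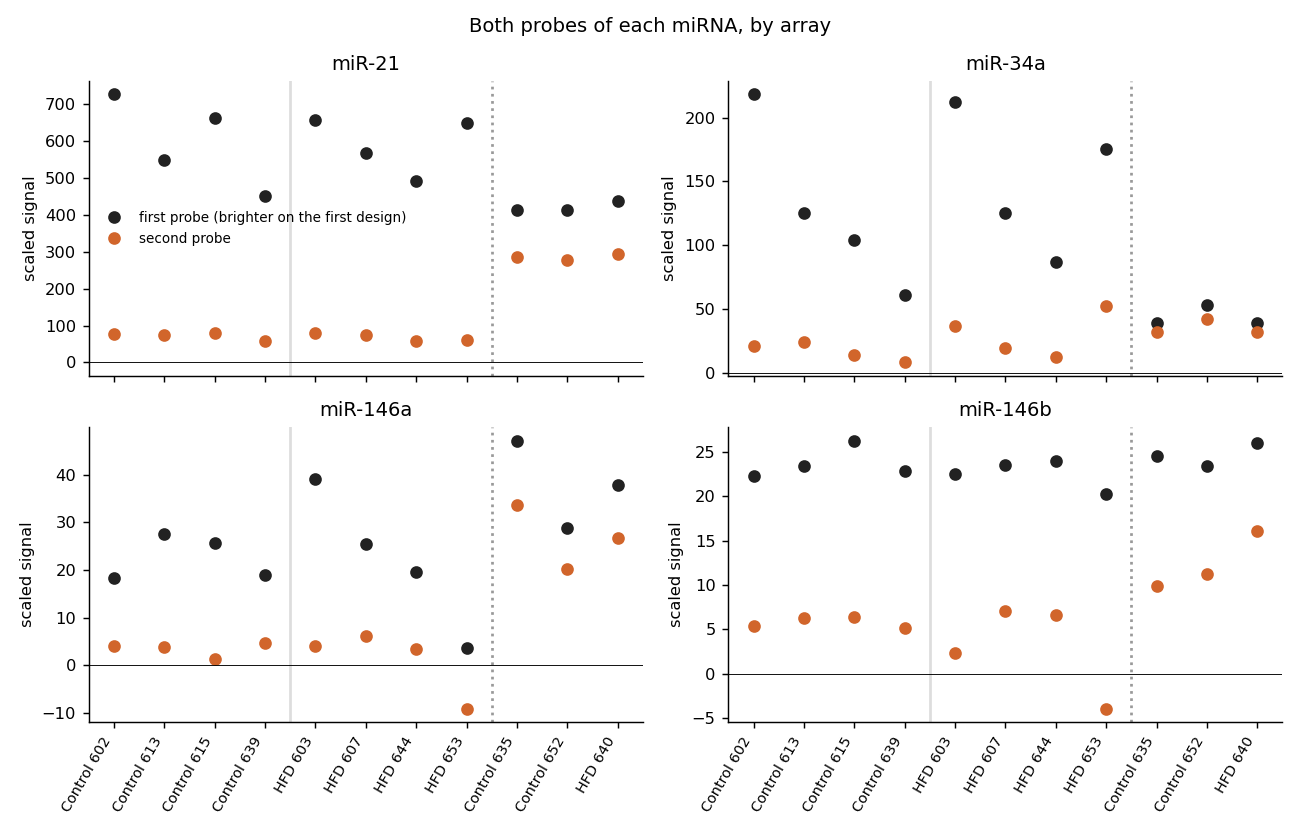
Scaled signal of each of the 2 probes of miR-21, miR-34a, miR-146a and miR-146b on the 11 arrays; grey lines part Control from HFD and dotted lines the first design from the second. Below 0 are the dimmer probes of miR-146a and miR-146b on HFD 653, and on the second design both probes of a miRNA lie closer together.

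Among the 4, the patterns over the 8 first-design arrays were alike for miR-21 with miR-34a and, less clearly, for miR-146a with miR-146b. These relations belong to 594 pairs of a member with another tested miRNA, of which 0 passed an adjusted p of 0.05 and 115 an unadjusted one in the exact permutation of 40320 orders. The smallest adjusted p was 0.176. For miR-21 and miR-34a, r was 0.841 and rho 0.690, with exact permutation p of 0.0106 and 0.0694, and r fell to 0.498 without Control 639 and HFD 644. miR-146a and miR-146b had r = 0.702 and rho = 0.214 (exact permutation p = 0.108 and 0.619), and r was 0.439 without HFD 603 and HFD 653. Both relations thus rested in part on the arrays left out. The remaining pairs had r of -0.026 for miR-21 with miR-146a, -0.25 for miR-21 with miR-146b, -0.078 for miR-34a with miR-146a and -0.53 for miR-34a with miR-146b.

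The 2 tested miRNAs whose pattern was most like each member were listed by r over the same arrays. For miR-21 these were miR-99a, with r = 0.915 and rho = 0.952 (exact permutation p = 0.00191 and 0.00114), and miR-34a. For miR-34a they were miR-672, with r = 0.912 and rho = 0.952 (exact permutation p = 0.00174 and 0.00114), and miR-216a. Without the 2 most distant arrays r was 0.861 for miR-99a and 0.961 for miR-672. For miR-146a they were miR-322, with r = 0.905 and rho = 0.929 (exact permutation p = 0.000446 and 0.00223), and miR-16, with r = 0.865 and rho = 0.857 (exact permutation p = 0.0031 and 0.0107). These were 0.814 and 0.761 without HFD 603 and HFD 653. For miR-146b they were miR-340-5p and miR-148b-3p, with r of 0.951 and 0.949 and rho of 0.738 for each (exact permutation p = 0.00511 and 0.00709 for r and 0.0458 for rho). Those fell to 0.388 and 0.649 without the same 2 arrays, so the likeness of miR-340-5p rested on them. In the opposite direction, miR-34a had r = -0.865 and rho = -0.905 with the endocrine miRNA miR-7a (exact permutation p = 0.00382 and 0.00456) and r = -0.763 and rho = -0.833 with miR-375 (p = 0.0276 and 0.0154). Without Control 639 and HFD 603 these r were -0.78 and -0.39. miR-21 likewise had r = -0.873 and rho = -0.905 with miR-7a (exact permutation p = 0.00429 and 0.00456). That r was -0.807 without Control 639 and HFD 644. With miR-375 and miR-216a, miR-21 had r of -0.605 and 0.71, or -0.254 and 0.057 without those arrays. For miR-146a and miR-146b, r with miR-7a was -0.050 and 0.235. miR-146b had r = -0.948 with the leukocyte miR-223, or -0.44 without HFD 603 and HFD 653. All arrays share the scaling, which ties their signals together.

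miRNAs of the same pathways were listed by knowledge of NF-κB and inflammation or of p53 and cell stress. Of 26 listed, 24 were on both designs, 7 were detected on no array and 14 were tested. The fitted difference was above 0 for 11 and below 0 for 3, with a median of 0.059. Over all 152 it was above 0 for 108 and below for 44, with a median of 0.066. That split moved with the scaling: 36 of 152 lay above 0 with the 75th percentile over all shared names, 49 with the median, 48 with quantiles and 134 with none. Of the 14, 0 were called, by limma, adjusted or unadjusted. The largest differences in size were 0.18 ± 0.17 (SE) for miR-192, a p53-responsive miRNA, -0.15 ± 0.37 for miR-30b-5p and 0.13 ± 0.32 for miR-132, which the factor CREB induces. The inflammation list had 9 tested, 6 above 0, with a median of 0.050, and the p53 list had 5 tested, 5 above 0, with a median of 0.067. The lists thus lay where the bulk of the tested miRNAs lay. miR-155, induced in activated leukocytes, was not among the shared names and was not analysed here.

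**Figure D4:**
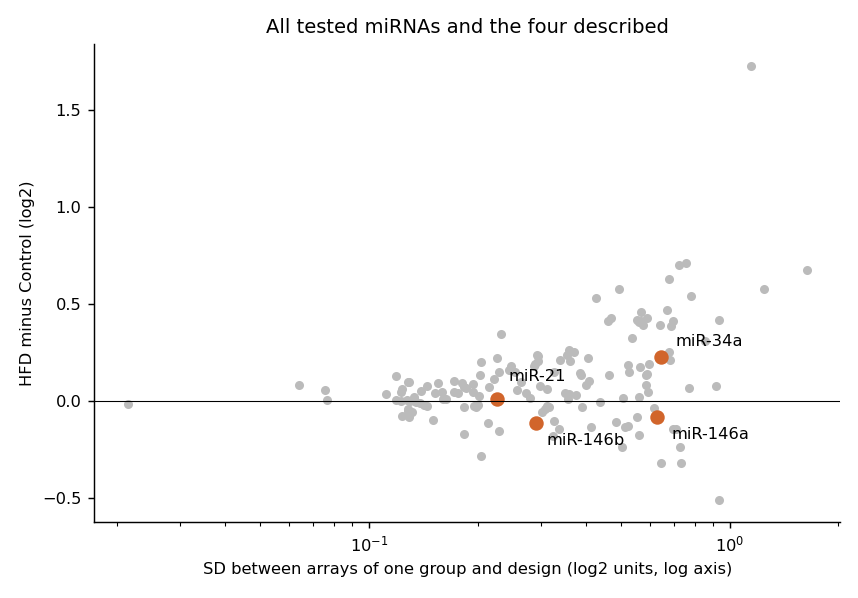
Fitted HFD minus Control difference (log2, vertical) against the SD between arrays of 1 group and design (log axis) for the 152 tested miRNAs, with miR-21, miR-34a, miR-146a and miR-146b in orange. The 4 lie between -0.11 and 0.23, within the cloud of the rest; the highest point is miR-150 at 1.73.

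The size of the difference, without its sign, was 38th in descending order of 152 for miR-34a, 75th for miR-146b, 91st for miR-146a and 143rd for miR-21. miR-34a and miR-146a varied more between arrays than most tested miRNAs. The SE was 0.13 for miR-21 and 0.18 for miR-146b, against a median of 0.18 over all tested, and 0.34 for miR-34a and 0.33 for miR-146a. The SD between arrays of 1 group and design was 0.23 for miR-21, 0.29 for miR-146b and 0.63 for miR-146a, 98th, 85th and 25th in descending order of 152. Measured from the median of all tested miRNAs, the difference was -0.056 for miR-21, 0.16 for miR-34a, -0.15 for miR-146a and -0.18 for miR-146b. Under quantile normalisation these became 0.12, -0.031, -0.17 and -0.30, so miR-21 and miR-34a changed sign against the median. miR-146a did so with normexp, at 0.043, with the floor at the 5th percentile, at 0.018, and without HFD 653, at 0.13. miR-146b did so with normexp, at 0.014, with the software's totals, at 0.041, with the median over probes, at 0.015, and without both HFD 603 and HFD 653, at 0.035. Leaving out both arrays put miR-34a at -0.25, and leaving out Control 639 put it at -0.066. For miR-21, leaving out Control 602 gave 0.036 and leaving out HFD 644 gave 0.0023. Across all alternatives the limma adjusted p ran from 0.801 to 1 for miR-21 and miR-146b, from 0.831 to 1 for miR-34a and from 0.805 to 1 for miR-146a.

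**Figure D5:**
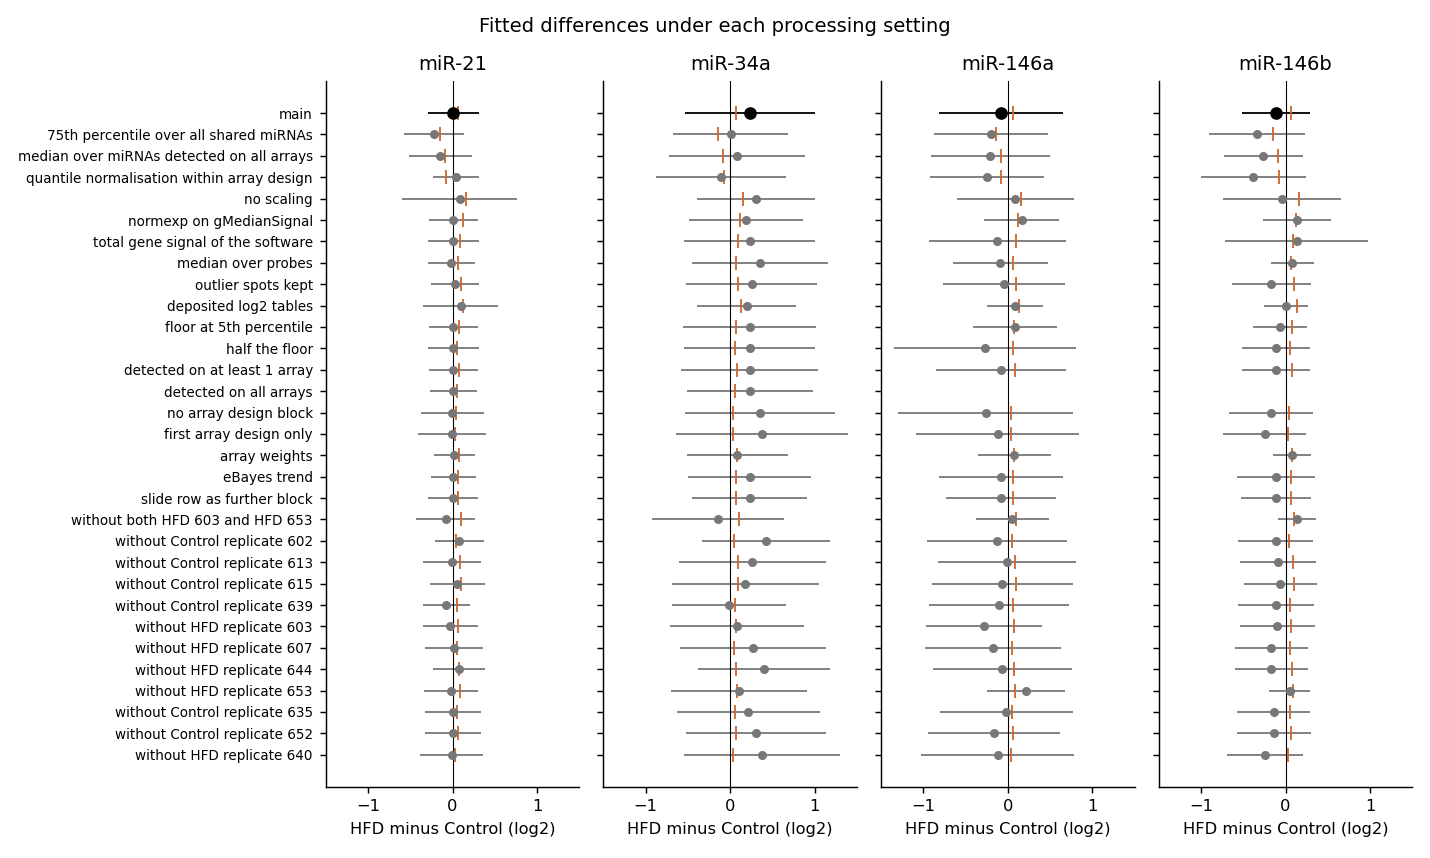
Fitted HFD minus Control difference (log2) of each miRNA under each processing setting, with 95% intervals; black is the setting used in the text, grey the alternatives, and orange ticks the median of all tested miRNAs. Each interval of the 4 miRNAs includes 0, and a missing point means that the miRNA was not tested there.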

How the data were processed

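Each 1-colour Agilent miRNA array received Cy3-labelled RNA prepared from 100 ng of total islet RNA. The deposited spot intensity was background-subtracted by Agilent Feature Extraction, version 10.5.1.1 (first design) or 10.7.3.1 (second design), without normalisation across arrays, per the file headers. The authors' deposited log2 tables equal log2 of the software's total intensity plus 50 on the first design, and log2 of that total on the second with blanks where undetected apart from a few cells, so they served as an alternative. Their column medians were 5.68 to 5.83 on the first design and 6.52 to 6.89 on the second, neither is centred per miRNA, and they hold no ratios. The submitters' processing notes also name RMA and Partek; what they were used for, and their versions, are not given in the sources used here.

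Here, spots without outlier flags were averaged per probe, the probes of a miRNA were summed, and arrays were scaled to the geometric mean of their 75th percentiles over the 85 miRNAs that all 11 arrays detected. A floor of 10.3, the 1st percentile of scaled signals of detected miRNAs, was applied before log2. limma 3.58.1 in R 4.3.3 was fitted, 2-sided, over the 152 shared names detected on at least 5 arrays, with array design, which coincides with slide and scan, as a block. The fit was tested on simulated data with known changes and normal noise, without a floor or outlying arrays. That test does not show how small a difference these arrays could detect. The number of arrays limits the precision. The array names were matched to RefSeq mature miRNAs by name, taking an unstarred name as the 5′ arm; the array header names the rn4 build and gives no positions. The 4 miRNAs, the related and marker lists and the tests were chosen with earlier results of these data known. Named miRNAs were the 4, their opposite strands and seed relatives, the 2 most alike in pattern for each, miR-155, the 3 largest differences of the related list, the cell type markers in the text and any miRNA past the threshold.

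Alternatives changed the scaling, background correction, probe summary, outlier handling, floor, detection minimum, block and arrays. The planned normexp correction on mean signals used median signals, because the files hold no mean column. That setting, the slide row block and the joint omission of HFD 603 and HFD 653 were chosen after seeing the data.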

Additional observations from a re-analysis of the deposited data

Results flagged for a closer look

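None of the 4 miRNAs had an array standing apart from its group by Dixon's test on the first design, where each group had 4 arrays. Of 40 groups checked over the members and part of the other miRNAs named, 5 had such an array, where chance gives about 1 in 20, or 2. The gap to the nearest array, as a share of the whole Control range, was 0.832 for miR-322 with Control 613 high, 0.837 for miR-148b-3p with Control 602 low and 0.912 for miR-223 with Control 602 high. It was 0.94 for miR-143 with Control 639 low and 0.925 for miR-30b-5p with Control 602 low. Those 5 carry no verdict on miR-142-3p, which was detected on 4 of 11 arrays and was not among the 152 tested. HFD 603 read 102 for it against 3.09 to 8.54 on the other first-design arrays. Control 639 was also the lowest first-design array for miR-21, at 511, and for miR-34a, at 68.7.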

How the results depend on the processing

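No miRNA of the 4 passed an adjusted p of 0.05 under any alternative, and their directions were not stable. Some alternatives cannot move a given estimate, so only those that did are counted. For miR-21, 12 of 23 such alternatives kept the direction; it read -0.21 with the 75th percentile over all shared names, -0.14 with median scaling, -0.013 with the median over probes, -0.0043 without the block, -0.0099 on the first design and -0.079 without HFD 603 and HFD 653. For miR-34a, 20 of 23 kept it; quantile normalisation gave -0.11 and leaving out both arrays -0.15. For miR-146a, 19 of 26 kept it; it read 0.088 without scaling, 0.16 with normexp, 0.084 in the deposited tables, 0.089 with the floor at the 5th percentile, 0.077 with array weights and 0.051 without both arrays. For miR-146b, 18 of 25 kept it. It read 0.13 with normexp and without both arrays, 0.081 with the median over probes and 0.077 with array weights. It was 0.0051 in the deposited tables, where Control 635 is blank. With the software's totals it was 0.13, and there the total of 0.1 on Control 635 was raised to the floor. Leaving out 1 array at a time gave -0.076 to 0.080 for miR-21, -0.0088 to 0.42 for miR-34a, -0.28 to 0.21 for miR-146a and -0.25 to 0.049 for miR-146b. Scaling moved the median of all tested miRNAs by -0.21 with the 75th percentile over all shared names, -0.15 with the median and -0.14 with quantiles, and without scaling by 0.089. The cause of the reversals was not tested. The count called was 1, miR-150, without scaling, and 0 when any 1 array was left out. The median of the related list was -0.16 with the 75th percentile over all shared names, and 0.0058 to 0.10 with 1 array left out. Requiring detection on all arrays left miR-146a and miR-146b untested. No paired analysis was possible because the groups share no replicate numbers. The signal over background on HFD 653 limits miR-146a and miR-146b.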
